A study of Mus musculus with 11 samples.

Results

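The 41 genes described here build the apical junction and the actomyosin network of the neuroepithelium. They are a written list of Shroom scaffolds, non-muscle myosin II chains, cytoskeletal regulators, actin turnover factors, membrane linkers, polarity proteins and junction proteins, grouped by known function and drawn up with earlier results of these data known. Each gene was read through a probe set that carries a single gene symbol, taking the one of highest mean over the 11 arrays. Of the 41 genes, 39 had such a probe set, and all 39 were among the 13338 genes tested, of 18193 genes with a single-symbol probe set. Rock2 and Crb2 were not analysed here.

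Expression was measured with Affymetrix Mouse Genome 430 2.0 arrays in tissue of C57BL/6 embryos, with no mutant or treated group. At E9.5 there were 3 arrays of closed neural tube and 3 of open neuroepithelium, and at E8.5 there were 2 arrays of closed neural tube and 3 of open neuroepithelium. Open tissue lay caudal to the point where the tube was still unfused, closed tissue lay rostral to it, notochord stayed attached, and each sample was a pool from a litter, with 111 embryos in all. Before dissection the embryos stood in pancreatin (2.5%) with trypsin (0.5%), for 8 min at E9.5 and 5 min at E8.5. Closure and axial level therefore cannot be told apart in a comparison of regions, nor stage and digestion time in a comparison of stages.

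The neural plate becomes a tube by bending, and much of the bending comes from cells that narrow their apical side. In that process Shroom scaffolds act at the apical junctions to gather active non-muscle myosin II, and the myosin pulls on actin filaments that are anchored to cadherin-catenin complexes. In mouse, loss of Shroom3, Marcks, Vcl, Cfl1 or Arhgap35 leads to failed closure of the neural tube.

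All values are log2 signal as deposited. Differences on that scale take open from closed tissue, or E8.5 from E9.5, and SE is the standard error from the fit of the 4 groups. A gene passed the threshold at a Benjamini-Hochberg adjusted p under 0.05 over all genes tested. Counts at an unadjusted p under 0.05 call no gene, and the share of all genes at that p was not counted. Levels of different probe sets are not comparable with each other. As a measure of RNA quality, the 3′ minus 5′ signal of Gapdh and Actb was 2.20, 2.48 and 1.14 on the open E9.5 arrays and 1.15 to 1.82 on the other arrays, so that open E9.5 replicates 1 and 2 stood apart. Pairwise correlations between arrays ran from 0.953 to 0.9966. Neural markers (Sox1, Sox2, Sox3, Pax6 and Nes) averaged 9.51 to 9.78 on closed and 8.27 to 8.78 on open arrays at E9.5, and 9.77 to 10.1 on closed and 8.18 to 8.51 on open arrays at E8.5. Caudal progenitor markers (4 of 5 measured) averaged 7.55 to 7.63 on closed and 10.40 to 10.55 on open arrays at E9.5, and 6.80 to 7.0 on closed and 10.35 to 10.69 on open arrays at E8.5. Presomitic markers averaged 4.85 to 5.11 on closed and 6.26 to 6.93 on open arrays at E9.5, and 4.83 to 5.07 on closed and 6.84 to 7.19 on open arrays at E8.5. Sizes varied within a list. Neural differences ran from 0.36 to 3.13 at E9.5 and from 0.1 to 3.83 at E8.5. Presomitic ones ran from -3.12 to -0.04 at E9.5 and from -3.87 to -0.05 at E8.5. The regions thus differed in the averages of these markers as well as in closure, and the part of the markers in the results that follow was not tested.

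The first question was which of these genes differ between tube that has closed and plate that is still open at E9.5. Lmo7, a LIM domain protein that links afadin to alpha-actinin at adherens junctions, fell 4.65-fold in closed tube, and the actin crosslinker Actn1 fell 1.58-fold. Ctnna1 (alpha-catenin) was lower and Shroom2 higher by smaller amounts. These were the 4 of 39 genes past the threshold (10.3%), 1 higher and 3 lower, against 8.54% of all genes tested (2.75% higher, 5.79% lower). The median difference of the 39 genes was -0.11, against -0.007 over all genes tested, and 31 of the 39 differences were below 0. The share of all genes below 0 was not counted. In 34 of the 39 the difference was under 0.5 in size. Small sizes were general, with a median size of 0.18 over the 39 genes and 0.15 over all genes tested.

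Lmo7 read 4.98, 4.9 and 5.02 on the closed E9.5 arrays and 7.20, 7.29 and 7.06 on the open E9.5 arrays. The closed arrays lay near each other and far below the open ones, with no overlap. The difference was -2.22 (SE 0.16, adjusted p = 3.26e-06). On closed arrays Lmo7 lay near the median of all probe sets of an array (4.8 to 4.9), where background can hold a value up, so the fold may be a lower bound. Lmo7 was the only one of the 39 genes whose difference reached 1 in size, which 3.45% of all genes did. Its call held without each of the 11 arrays in turn, and without the pair of open E9.5 arrays of high 3′ signal the difference was -2.09. Here and below, leaving out that pair keeps 1 open E9.5 array, replicate 3, assumed to vary like the other groups. A second Lmo7 probe set lay below the filter at a mean of 3.8, and averaging the pair of probe sets gave -1.22, still past the threshold.

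Markers of other tissues moved between the same arrays. The 6 surface ectoderm markers averaged 6.01 to 6.05 on closed and 6.47 to 6.64 on open arrays at E9.5, and none was below the filter of 4.30 on all arrays. Epcam, an epithelial adhesion molecule, was lower by 2.03 in closed tissue (adjusted p = 0.00131), and Grhl3, a surface ectoderm transcription factor, by 1.72 (adjusted p = 0.000193). The other 3 tested markers lay above 0, with Tfap2a at 0.60 (adjusted p = 0.142), Krt8 at 0.51 (0.27, with the replicate block 0.00746) and Krt18 at 0.01 (0.99). The 4 gut endoderm markers averaged 5.89 to 5.93 on closed and 6.19 to 6.50 on open arrays. Of the 3 tested, 1 passed the threshold, lower in closed tissue, and the differences ran from -0.86 to 0.09. Notochord markers (3 of 4 measured) averaged 7.75 to 8.20 on closed and 7.23 to 7.64 on open arrays at E9.5, with 2 of 3 past the threshold, higher in closed tissue. The part of these markers in the Lmo7 difference was not tested. In tissue pools, fewer cells of a type and less RNA per cell cannot be told apart.

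The promoters of Lmo7 and Actn1 are shown because these genes had the largest called differences between the regions. Each is the 250 bases upstream of an annotated start, from RefSeq with build GRCm38.p6, written 5′ to 3′ on the strand of the gene. Capitals mark the only match to any of 4 short motifs.
Lmo7, chr14:101729678-101729927, plus strand: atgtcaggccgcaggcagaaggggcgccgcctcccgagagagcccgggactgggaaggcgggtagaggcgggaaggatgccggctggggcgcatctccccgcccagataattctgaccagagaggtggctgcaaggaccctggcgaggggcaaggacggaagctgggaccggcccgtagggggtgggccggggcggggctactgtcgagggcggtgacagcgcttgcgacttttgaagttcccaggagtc
Lmo7, second start, chr14:101840373-101840622, plus strand: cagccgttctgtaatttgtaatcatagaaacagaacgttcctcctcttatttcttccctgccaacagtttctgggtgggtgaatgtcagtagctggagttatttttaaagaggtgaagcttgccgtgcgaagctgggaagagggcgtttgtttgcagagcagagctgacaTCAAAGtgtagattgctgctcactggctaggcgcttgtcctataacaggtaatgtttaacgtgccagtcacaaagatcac
Actn1, chr12:80260364-80260613, minus strand: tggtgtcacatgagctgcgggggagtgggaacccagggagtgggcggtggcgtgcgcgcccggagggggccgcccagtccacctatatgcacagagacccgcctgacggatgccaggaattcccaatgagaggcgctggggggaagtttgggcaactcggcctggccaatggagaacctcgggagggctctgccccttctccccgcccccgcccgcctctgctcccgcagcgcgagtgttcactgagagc
The motifs, searched on both strands, were GGAATG (TEAD factors), AACCGG (grainyhead factors), CTTTGA (TCF/LEF factors) and TTTATG (CDX factors). They were picked with the values known. The match in the second Lmo7 promoter was CTTTGA on the opposite strand, with its first base 80 bases before the start (position -80). Of 32851 promoters of that length, 12.6% held the TEAD motif, 5.62% the grainyhead motif, 13.8% the TCF/LEF motif and 10.8% the CDX motif. Among 50 promoters of 35 of the genes described here, 9 held the TEAD motif, 4 the grainyhead motif, 3 the TCF/LEF motif and 2 the CDX motif. A match is a description of letters only.

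Actn1 was the other gene with a call that each left-out array kept. It read 10.81, 10.58 and 10.82 on closed E9.5 arrays and 11.31, 11.47 and 11.40 on open E9.5 arrays. The highest closed array lay well below the lowest open one. The difference was -0.66 (SE 0.09, adjusted p = 0.000483). Without the pair of open arrays of high 3′ signal it was -0.67 (adjusted p = 0.0154, against 4.12e-05 to 0.213 over all alternatives). The Actn1 call rests on the brightest of 3 probe sets: the others gave -0.24 and -0.20, and the mean of all 3 gave -0.37 (adjusted p = 0.213).

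**Figure D1:**
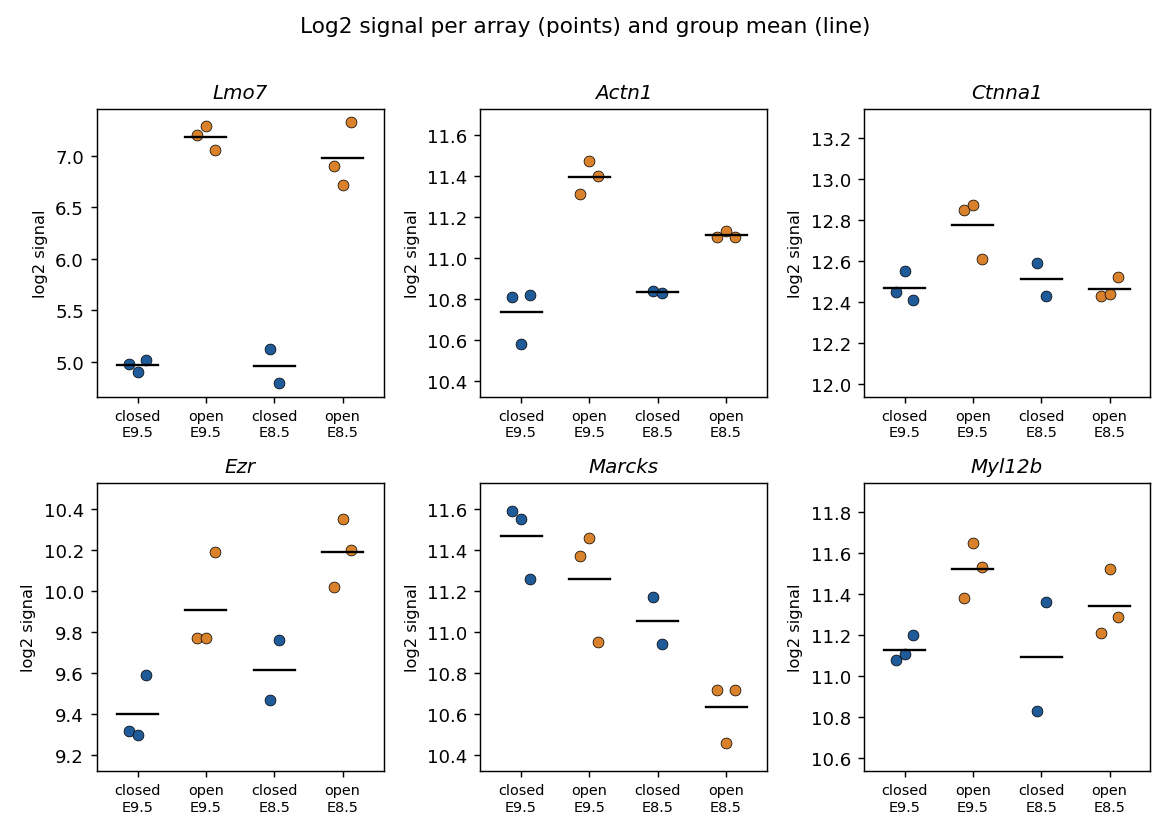
Log2 signal of 6 genes on each array (vertical axes differ between genes and do not start at 0), with closed arrays in blue, open arrays in orange and a line at the group mean. Lmo7 sits between 4.79 and 5.12 on all closed arrays and between 6.72 and 7.33 on all open arrays, while Marcks is lowest on the open E8.5 arrays.

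Among the other junction proteins, Ctnna1, which ties cadherin-bound beta-catenin to actin, read 12.45, 12.55 and 12.41 on closed E9.5 arrays and 12.85, 12.87 and 12.61 on open E9.5 arrays. The groups did not overlap, and the lowest open array was replicate 3, whose 3′ signal was low. The difference was -0.31 (SE 0.08, adjusted p = 0.0451). It was -0.14 without open E9.5 replicates 1 and 2 (adjusted p = 0.575, against 0.0044 to 0.575 over all alternatives), the pair of high 3′ signal. The call was lost without any one of 8 arrays, namely open E8.5 replicates 1, 2 and 3, open E9.5 replicates 1 and 2, and closed E9.5 replicates 1, 2 and 3 (adjusted p 0.0646 to 0.175). Tjp1 (ZO-1), Ctnnb1 (beta-catenin), Ctnnd1 (p120-catenin) and Afdn (afadin) had differences from -0.12 to -0.01 and did not pass the threshold.

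Of the 4 Shroom scaffolds, 1 passed at E9.5. Shroom2 read 8.75, 8.70 and 8.73 on closed and 8.38, 8.41 and 8.28 on open arrays. All closed arrays lay above all open ones, and the difference of 0.37 (SE 0.10, adjusted p = 0.0452) was the only one of the 39 genes past the threshold in the higher direction. That call was lost without any 1 of the 11 arrays (adjusted p 0.0569 to 0.124). A second Shroom2 probe set gave 0.17.

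Shroom3, the family member needed for closure, read 9.03, 9.08 and 8.78 on closed E9.5 arrays and 9.51, 9.77 and 9.28 on open E9.5 arrays. Shroom4 read 8.54, 8.47 and 8.23 on closed and 9.14, 8.98 and 8.67 on open arrays. In both genes every closed array lay below every open array, and in both the replicate 3 arrays were the lowest of their group. The differences were -0.56 for Shroom3 (SE 0.16, adjusted p = 0.0598) and -0.52 for Shroom4 (SE 0.16, adjusted p = 0.0649), so neither passed. With the replicate number as a block they passed, at an adjusted p of 0.00431 for Shroom3 and 0.00377 for Shroom4. Without the pair of open arrays of high 3′ signal the differences were -0.32 and -0.26, with adjusted p of 0.532 and 0.592, the highest over the alternatives. Other Shroom3 probe sets gave -0.38, -0.30 and 0.06. Shroom1 lay between 4.67 and 4.87 on all 6 arrays, with a difference of -0.07. Its only probe set had a mean of 4.83, near the median of all probe sets of an array (4.8 to 4.9), where background can hide a difference.

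**Figure D2:**
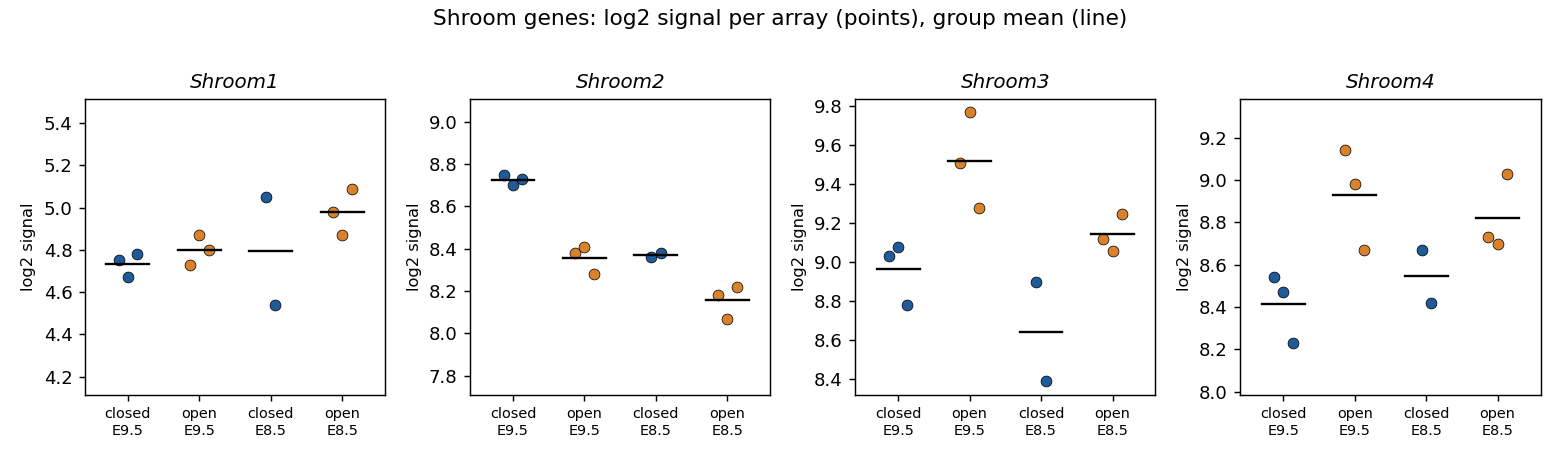
Log2 signal of the 4 Shroom genes on each array (vertical axes differ and do not start at 0), closed arrays in blue and open arrays in orange, with a line at the group mean. In the probe sets shown, Shroom2 is higher on closed than on open arrays of the same stage, while Shroom3 and Shroom4 lie lower on closed arrays. The Shroom2 difference passed the threshold at E9.5 (0.37) and not at E8.5 (0.22).

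Replicate numbers were taken to pair the open and closed arrays of a stage, though the labels do not say that litters were shared. The fit with that block called 9 of the 39 genes at E9.5 (23.1%), 1 higher and 8 lower. Of all genes tested it called 16.7% (5.46% higher, 11.2% lower). Beside the 4 genes above and Shroom3 and Shroom4, these were Ezr, Myl12b and Mpp5. Ezr, the ezrin that links apical membrane to actin, read 9.32, 9.30 and 9.59 on closed and 9.77, 9.77 and 10.19 on open arrays. Myl12b, a regulatory light chain of non-muscle myosin II, read 11.08, 11.11 and 11.20 on closed and 11.38, 11.65 and 11.53 on open arrays. Neither gene's groups overlapped. Mpp5 (Pals1), the scaffold of the Crumbs complex, read 8.25, 8.14 and 7.78 on closed and 8.76, 8.48 and 8.11 on open arrays, and there the groups overlapped although each closed array lay below the open array of its number. The differences were -0.51 for Ezr (adjusted p = 0.0635, with the block 0.00164), -0.39 for Myl12b (0.119, with the block 0.00619) and -0.39 for Mpp5 (0.308, with the block 0.0245). With the number as a random block Mpp5 did not pass (adjusted p = 0.056). A second Ezr probe set gave 0.06, a second Myl12b probe set -0.06, and the other Mpp5 probe sets -0.24 and -0.05. Without the pair of open arrays of high 3′ signal, which leaves 1 open array, Ezr stood at -0.78, Myl12b at -0.40 and Mpp5 at -0.05. Over all alternatives the adjusted p ran from 0.000454 to 0.256 for Ezr, 0.00619 to 0.377 for Myl12b and 0.0245 to 0.942 for Mpp5. With the block and the 3′ to 5′ covariate together, Shroom3, Myl12b, Mpp5, Ctnna1 and Shroom2 did not pass, while Rhob and Vasp did.

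The myosin chains, turnover factors and polarity proteins gave no call at E9.5 without the block. Of 6 myosin chains 1 had an unadjusted p under 0.05 (Myl12b). The heavy chains Myh9, Myh10 and Myh14 stood at -0.24, -0.01 and -0.08. The 5 actin turnover and nucleation factors lay between -0.24 (Vasp, a filament elongation factor) and 0.11 (Evl, of the same family), with 0 unadjusted p under 0.05. The 4 polarity proteins measured lay between -0.39 (Mpp5) and 0.07 (Prkci, an atypical protein kinase C), also with 0. Across the 39 genes, closed and open arrays did not overlap in 10 (25.6%), 1 higher and 9 lower, against 22.5% of all genes tested (8.82% higher, 13.7% lower).

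**Figure D3:**
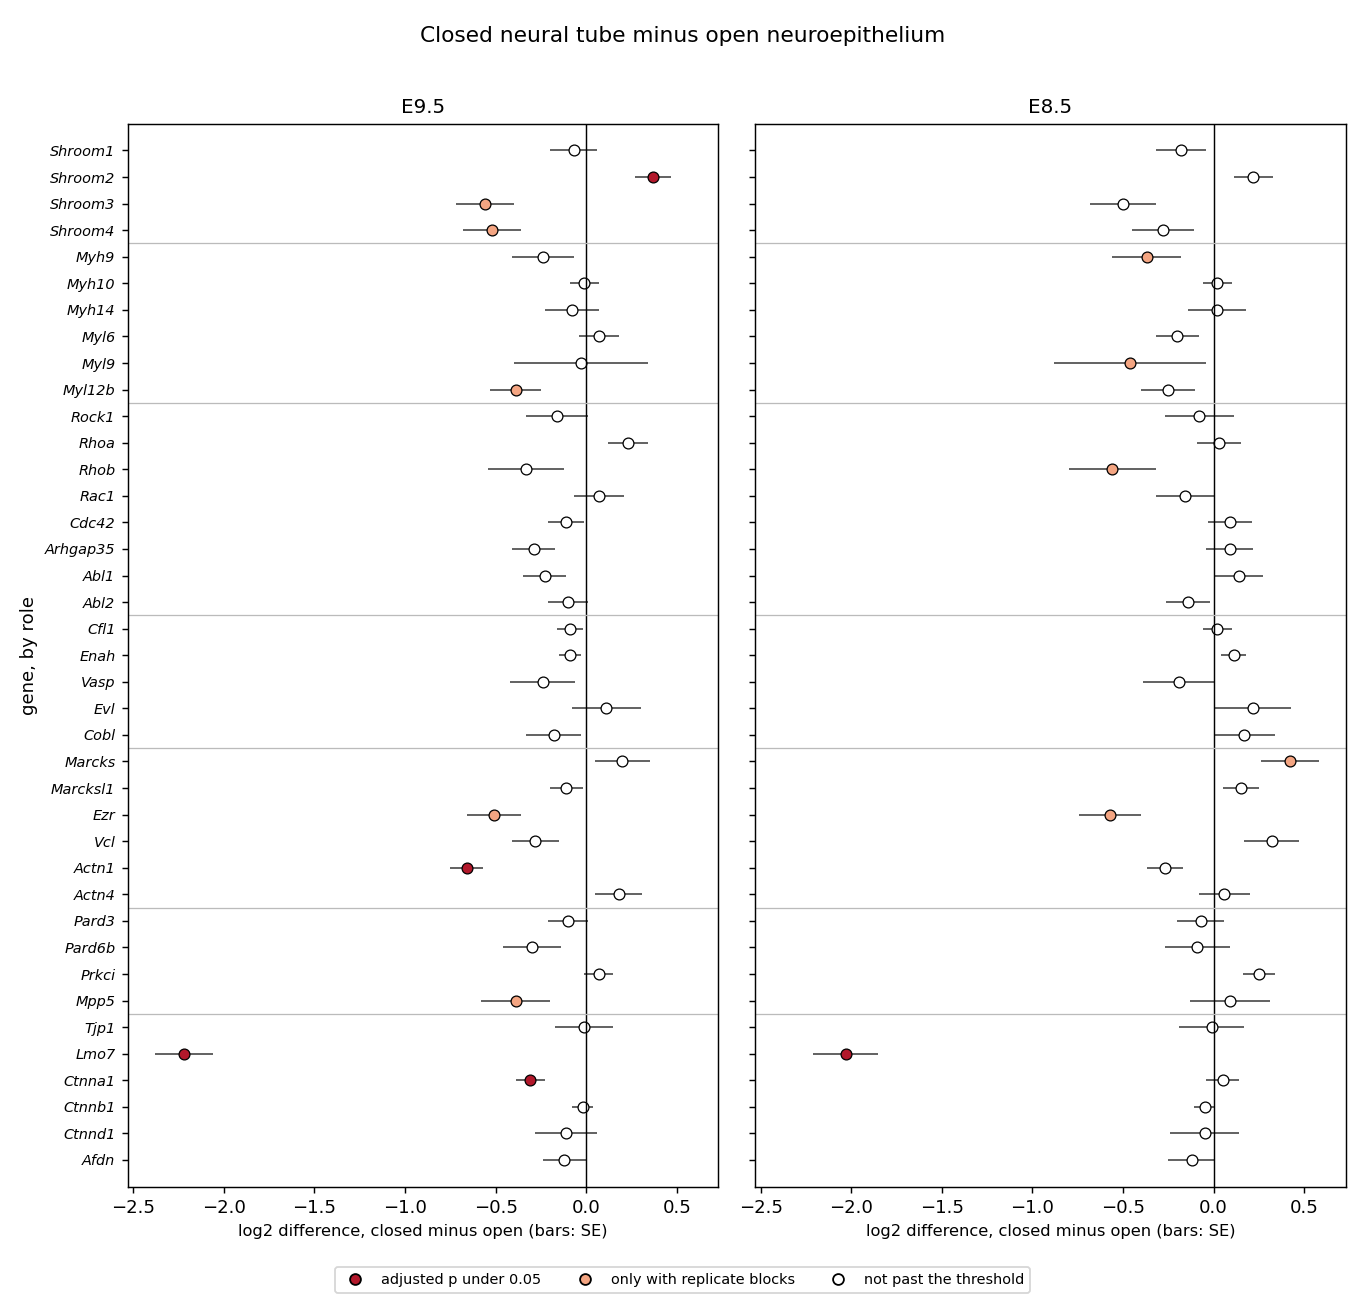
Log2 difference of closed minus open tissue (horizontal axis, bars are 1 SE) for the 39 genes in order of role, at E9.5 on the left and E8.5 on the right. Red points passed the threshold, light orange ones passed with the replicate block only, white ones did not pass, and Lmo7 stands apart at -2.22 and -2.03.

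The same comparison at E8.5 found Lmo7 again and no other gene without the block. Lmo7 read 5.12 and 4.79 on the closed E8.5 arrays and 6.90, 6.72 and 7.33 on the open E8.5 arrays. The groups were far apart, with a difference of -2.03 (SE 0.18, adjusted p = 1.65e-05), a 4.08-fold lower signal in closed tube. This was 1 of 39 genes (2.56%), against 7.17% of all genes tested (3.79% higher, 3.38% lower). The median difference of the 39 genes was -0.05, against 0.002 over all genes, and 35 of the 39 were under 0.5 in size. At E8.5 21 of the 39 differences were below 0, and the share of all genes below 0 was again not counted. The median size was 0.15 over the 39 genes and 0.12 over all genes tested. The Lmo7 call held without each array, and the mean of its pair of probe sets gave -1.10. Surface ectoderm markers averaged 6.17 to 6.26 on closed and 6.93 to 7.10 on open arrays at E8.5, and gut endoderm markers 5.94 to 5.97 on closed and 6.53 to 6.66 on open arrays. Notochord markers averaged 7.56 to 8.31 on closed and 7.62 to 8.05 on open arrays, and somite markers 4.68 to 6.24 on closed and 4.36 to 4.46 on open arrays. Single markers of a list did not all move alike. Of 5 tested surface ectoderm markers 3 passed, all lower, with differences from -1.97 to 0.82. Of 3 tested gut endoderm markers 1 passed, lower, with differences from -2.19 to -0.08 and a median of -0.11. Of 3 tested notochord markers 1 passed, lower, with differences from -0.89 to 0.59 and a median of 0.58. The part of these markers in the result was not tested.

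With the replicate block, in which open E8.5 replicate 3 has no partner and adds nothing to the contrast, 6 of 39 genes passed (15.4%), 1 higher and 5 lower, against 9.99% of all genes tested (5.47% higher, 4.51% lower). Ezr read 9.47 and 9.76 on closed E8.5 arrays and 10.02, 10.35 and 10.20 on open E8.5 arrays, so that the groups did not overlap. Its difference was -0.57 (SE 0.17, adjusted p = 0.0691, with the block 0.00405, against 0.00405 to 0.355 over all alternatives). A second Ezr probe set gave -0.13. Marcks, a membrane-bound actin regulator and substrate of protein kinase C, read 11.17 and 10.94 on closed and 10.72, 10.46 and 10.72 on open arrays. It was the only gene higher with the block, at 0.46 (adjusted p = 0.00712), and stood at 0.42 without it (adjusted p = 0.218, up to 0.516 over all alternatives).

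The remaining 3 genes called with the block at E8.5 belong to the contractile machinery and its control. Myh9, the heavy chain of non-muscle myosin IIA, read 9.36 and 9.21 on closed and 9.66, 9.86 and 9.44 on open arrays. Rhob, a small GTPase, read 8.08 and 8.62 on closed and 8.66, 9.04 and 9.01 on open arrays. In both genes the closed arrays lay below all open ones. Myl9, a regulatory myosin light chain, read 5.00 and 6.10 on closed and 5.68, 6.68 and 5.66 on open arrays, and there the groups overlapped. With the block the differences were -0.48 for Myh9 (adjusted p = 0.022), -0.51 for Rhob (adjusted p = 0.0496) and -0.63 for Myl9 (adjusted p = 0.031), and without it none of the 3 passed (adjusted p 0.447, 0.284 and 0.808). With the number as a random block all 3 calls were lost (adjusted p 0.0781 for Myh9, 0.0685 for Rhob and 0.31 for Myl9), and with the block and the 3′ to 5′ covariate together those of Rhob and Myl9 were lost. For Myl9 the difference was 0.09 without closed E8.5 replicate 1. The other 4 Myh9 probe sets gave -0.20 to 0.16.

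Actn1, lower at E9.5, read 10.84 and 10.83 on closed E8.5 arrays and 11.10, 11.13 and 11.10 on open E8.5 arrays, with no overlap. Its difference of -0.27 (SE 0.10) missed the threshold (adjusted p = 0.169). Ctnna1 read 12.59 and 12.43 on closed and 12.43, 12.44 and 12.52 on open arrays, with overlap and a difference of 0.05. Shroom2 read 8.36 and 8.38 on closed and 8.18, 8.07 and 8.22 on open arrays, a difference of 0.22 in groups that did not overlap (adjusted p = 0.434). Its second probe set, of mean 4.94, went the other way at -0.12. Shroom3 read 8.90 and 8.39 on closed and 9.12, 9.06 and 9.25 on open arrays, a difference of -0.50 (adjusted p = 0.171). It passed with the random block (0.0404), with the covariate (0.00397) and with block and covariate (0.0167), but not with the block alone (0.0598), and all 4 of its tested probe sets were below 0. Shroom4 read 8.67 and 8.42 on closed and 8.73, 8.70 and 9.03 on open arrays, a difference of -0.28 that did not pass. Across the 39 genes, the groups did not overlap in 15 (38.5%), 5 higher and 10 lower, against 27.5% of all genes tested (14.9% higher, 12.6% lower). By role, the 6 myosin chains lay between -0.46 and 0.02 and the 5 turnover factors between -0.19 and 0.22. The 4 polarity proteins lay between -0.09 and 0.25, with Prkci highest (adjusted p = 0.143).

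The next question was which of these genes change between E8.5 and E9.5 within a region. In open neuroepithelium 1 of 39 genes passed (2.56%), against 5.02% of all genes tested (3.61% higher, 1.42% lower), and that gene was Marcks, which rose at E9.5. With the number as a random block 1 passed too, against 5.12% of all genes tested. Marcks read 11.37, 11.46 and 10.95 on open E9.5 arrays and 10.72, 10.46 and 10.72 on open E8.5 arrays. All E9.5 arrays lay above all E8.5 arrays, with replicate 3 the lowest of the E9.5 group. The difference was 0.63 (SE 0.15, adjusted p = 0.0297). Of the 7 Marcks probe sets tested one by one, 4 passed, with differences of 0.50, 0.68, 0.73 and 0.63.

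The Marcks call was lost without open E9.5 replicate 1 or 2 (adjusted p = 0.125 each) and without open E8.5 replicate 1, 2 or 3 (adjusted p 0.0777, 0.119 and 0.0705). Without both open E9.5 arrays of high 3′ signal the difference was 0.32 (adjusted p = 0.531, against 0.00377 to 0.531 over all alternatives). The 3′ minus 5′ signal was 2.20, 2.48 and 1.14 on open E9.5 arrays and 1.32, 1.15 and 1.3 on open E8.5 arrays. Blood markers averaged 9.98 to 10.35 on open E9.5 arrays and 5.25 to 7.50 on open E8.5 arrays, and their part in the result was not tested. Ctnna1 stood at 0.32 (adjusted p = 0.0561) and Marcksl1, the Marcks paralogue, at 0.30 (adjusted p = 0.0765), with groups that did not overlap in either gene. The median difference of the 39 genes was 0.12, against -0.024 over all genes, and 30.8% of them had groups that did not overlap (11 higher, 1 lower), against 21.8% of all genes tested (12.1% higher, 9.75% lower).

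In closed neural tube 0 of 39 genes passed between the stages with limma, against 2.42% of all genes tested, and 4 had an unadjusted p under 0.05. With the random block 0 passed, against 2.32% of all genes tested. Marcks read 11.59, 11.55 and 11.26 on closed E9.5 arrays and 11.17 and 10.94 on closed E8.5 arrays, a difference of 0.41 in groups that did not overlap (adjusted p = 0.362). Rhob read 8.84, 8.92 and 9.24 on closed E9.5 arrays and 8.08 and 8.62 on closed E8.5 arrays, with no overlap and a difference of 0.65 (adjusted p = 0.287). Shroom2 stood at 0.35 (adjusted p = 0.185). Vcl, the vinculin that reinforces junctions under load, stood at -0.38 (adjusted p = 0.34). Averaged probe sets or the 3′ to 5′ covariate brought Marcks past the threshold here, and that covariate also brought Rhob. Blood markers averaged 8.83 to 10 on closed E9.5 arrays and 7.36 to 7.78 on closed E8.5 arrays, and their part in these values was not tested. The median over the 39 genes was -0.02, against -0.029 over all genes, and the groups did not overlap in 9 (23.1%), 6 higher and 3 lower, against 21.2% of all genes tested (7.86% higher, 13.3% lower). Lmo7 had a difference between the stages of 0.20 (SE 0.16) in open and 0.01 (SE 0.18) in closed tissue.

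**Figure D4:**
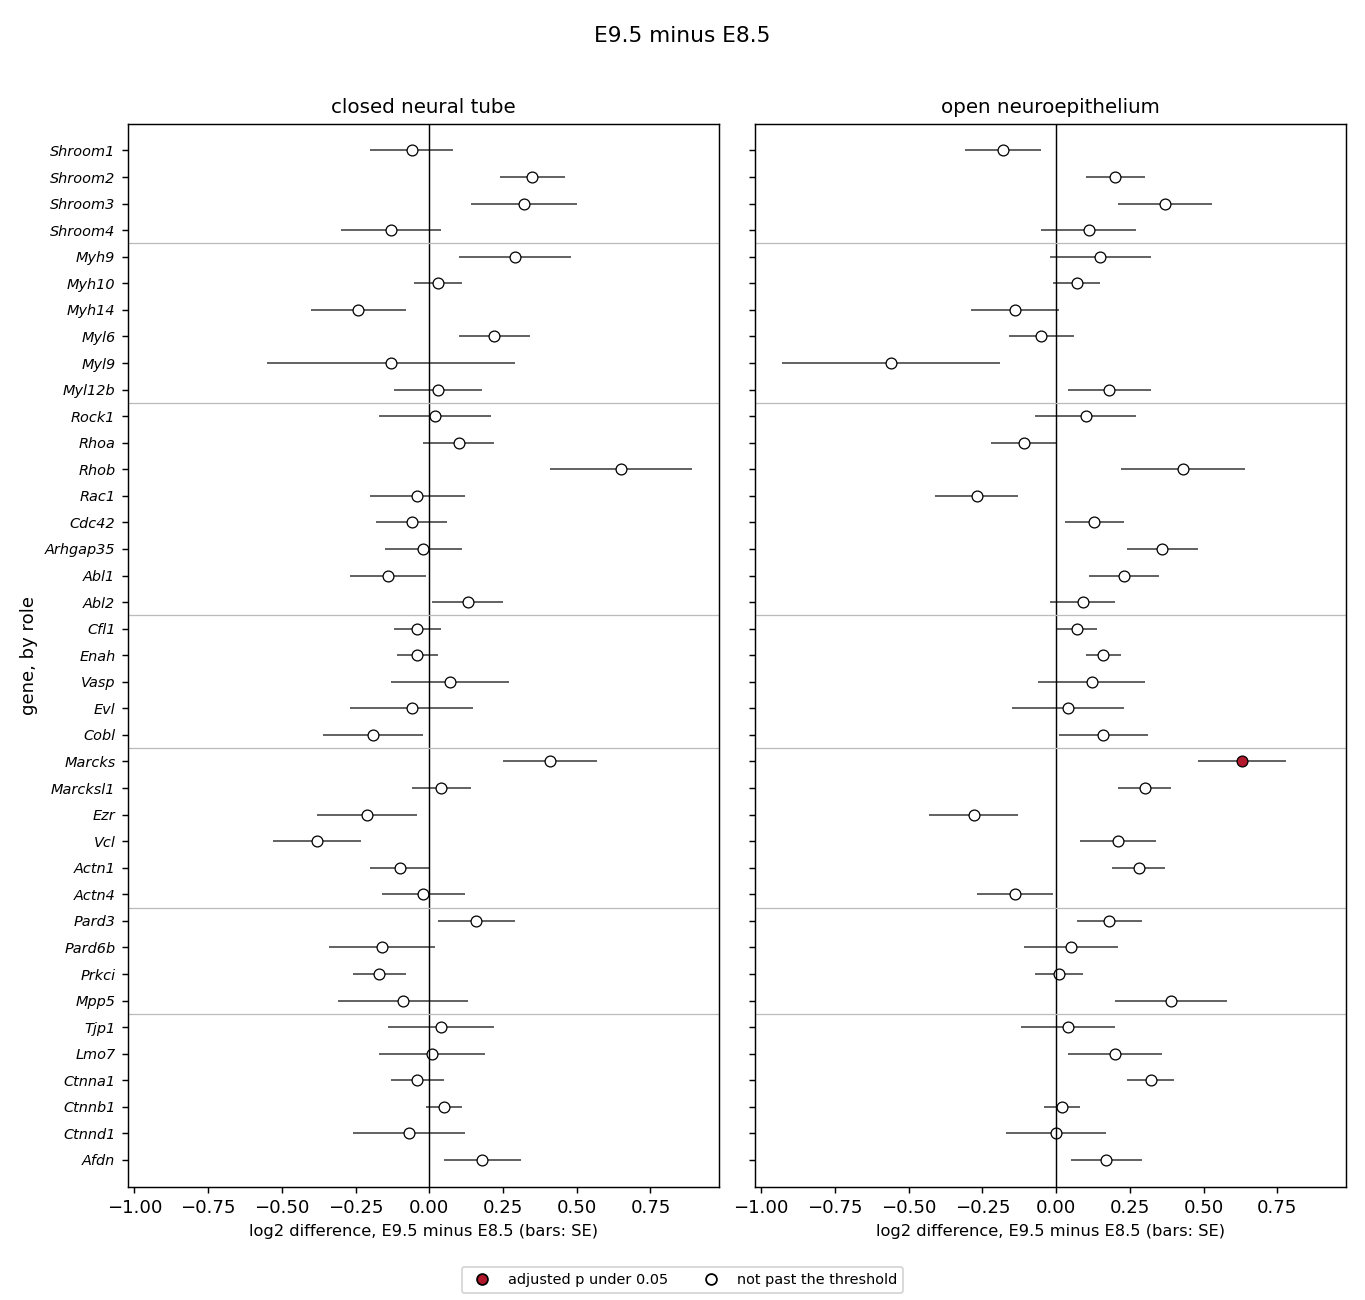
Log2 difference of E9.5 minus E8.5 (horizontal axis, bars are 1 SE) for the 39 genes in order of role, in closed neural tube on the left and open neuroepithelium on the right. Marcks in open neuroepithelium (0.63) is the only point past the threshold, and nearly all others lie within 0.5 of 0.

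Whether the difference between the regions itself changed with stage was tested as an interaction. With limma 0 of 39 genes passed, against 1.25% of all genes tested, and 3 had an unadjusted p under 0.05. With the replicate block 0 passed too, against 3.39% of all genes tested, and 7 had an unadjusted p under 0.05. The counts of 3 and 7 have no share of all genes to be set against. The largest interaction was that of Vcl, at -0.59 (SE 0.20, adjusted p = 0.301). Vcl read 9.89, 9.43 and 9.56 on closed E9.5 arrays, 9.92, 10.05 and 9.73 on open E9.5 arrays, 10.08 and 9.93 on closed E8.5 arrays, and 9.77, 9.60 and 9.71 on open E8.5 arrays. Its closed arrays lay above the open ones at E8.5 and overlapped them at E9.5. For Lmo7 the interaction was -0.19 (SE 0.24), for Actn1 -0.38 (SE 0.13, adjusted p = 0.313) and for Ctnna1 -0.35 (SE 0.13, adjusted p = 0.338).

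Other genes of the same machinery came from a pair of lists that hold none of the 41. Both lists were drawn up with earlier results of these data known, which can raise their shares of called genes. Of 39 tested junction and polarity genes (47 listed), 12 passed between the regions at E9.5, 4 higher and 8 lower in closed tube (30.8%, against 8.54% of all genes tested), and 7 passed at E8.5, 3 higher and 4 lower (17.9%, against 7.17%). The median difference was -0.04 at E9.5 and 0.06 at E8.5. Llgl2, a basolateral polarity protein, was higher in closed tube by 1.01 at E9.5 (means 6.83 in closed and 5.83 in open tissue, adjusted p = 0.000125) and by 2.01 at E8.5 (means 8.22 in closed and 6.21 in open tissue, adjusted p = 1.48e-06). Cgnl1, the junction protein paracingulin, differed by -1.21 at E9.5 (adjusted p = 0.00146) and -1.23 at E8.5 (adjusted p = 0.00312). Marveld2, the tricellulin of tight junctions between 3 cells, differed by -1.13 at E8.5 (adjusted p = 0.0058), with a closed mean of 4.61 near the filter. Frmd4a, a partner of the Par3 complex, differed by -1.14 at E9.5 (adjusted p = 0.00259), and by -0.64 without the open arrays of high 3′ signal, when it did not pass. Averaging all probe sets of Cgnl1 left -0.25 at E9.5 and -0.30 at E8.5, both still past the threshold.

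Of 66 tested actomyosin genes (73 listed), 6 passed at E9.5, 1 higher and 5 lower, with a median of -0.11, and 4 at E8.5, 1 higher and 3 lower, with a median of -0.06. These shares, 9.09% at E9.5 and 6.06% at E8.5, lay near those of all genes tested (8.54% and 7.17%). Tpm1, an actin-binding tropomyosin, differed by -1.46 at E9.5 (SE 0.29, adjusted p = 0.0081). Daam1, a formin of the planar cell polarity pathway, differed by -0.75 at E9.5 (adjusted p = 0.00336), but by -0.27 with averaged probe sets, when it did not pass. At E8.5 Slc9a3r1, which binds ezrin under the apical membrane, differed by -0.64 (adjusted p = 0.00305). With the block, 15 junction and polarity genes passed at E9.5, 7 higher and 8 lower (38.5%), and 20 actomyosin genes, 6 higher and 14 lower (30.3%), against 16.7% of all genes tested.

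Between the stages in open tissue, 5 junction and polarity genes (12.8%) and 2 actomyosin genes (3.03%) passed, against 5.02% of all genes tested. In closed tissue 3 junction and polarity genes (7.69%) and 1 actomyosin gene (1.52%) passed, against 2.42%. Llgl2 fell by 1.38 in closed tube at E9.5 relative to E8.5 (adjusted p = 0.000123). In open tissue Rhoc, a small GTPase, was higher at E9.5 by 0.97 (adjusted p = 0.00364), though by 0.79 and not past the threshold with averaged probe sets. The interaction passed for 2 junction and polarity genes (5.13%), Llgl2 and Frmd4a, and for 0 actomyosin genes, against 1.25% of all genes tested. Of the actomyosin genes 4 had an unadjusted p under 0.05. With the replicate block it passed for 3 junction and polarity genes (7.69%) and 3 actomyosin genes (4.55%), against 3.39% of all genes tested.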

How the data were processed

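Per the labels, RNA (50 ng a sample) was labelled in 2 amplification cycles and hybridized to 12 arrays, and the authors dropped 1 of them (closed E8.5) after quality assessment. The deposited log2 values cover 45101 probe sets on 11 arrays and run between 2.37 and 14.72. Per the submitters' processing notes MAS5 was used, with no role given; how these values were corrected for background and normalized is not given in the sources used here, and they were used unchanged. Controls (64) and probe sets with several gene symbols (932) were excluded. The probe set with the highest mean stood for its gene, and the 13338 genes whose mean reached 4.30, the 40th percentile over probe sets, were tested.

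The 4 groups were fitted in 1 model with limma 3.58.1 in R 4.3.3 (contrasts.fit, eBayes with an intensity trend; 7 residual degrees of freedom, median prior 4.4). Adjusted p-values are Benjamini-Hochberg over all genes tested. The script was tested on simulated data. Named genes were those past the threshold without or, between regions, with the replicate block; from the other pathway lists, up to 2 genes per direction and contrast, by smallest p. The genes and lists were chosen with earlier results of these data known. Counts by role for the cytoskeletal regulators are not reported here.

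Whether replicate numbers pair arrays was checked on deviations from group means: the 5 same-numbered pairs of open and closed arrays correlated at 0.576 and 0.697 (E8.5) and 0.308, 0.341 and 0.687 (E9.5), all above 0.1. Different numbers reached 0.317 (open E9.5 replicate 2 with closed E9.5 replicate 1), so E9.5 replicates 1 and 2 were not clearly told apart. At E8.5 the deviations of the 2 closed arrays mirror each other. Open E8.5 replicate 3, which has no partner, reached 0.309 with closed E8.5 replicate 1. The pairing is thus an assumption. The number was also fitted as a block within stage (3 residual degrees of freedom, median prior 8.3), and for contrasts of stages as a random block (correlation 0.455). Alternatives were quantile normalization, median centring, other filters, averaged or single probe sets, no trend, robust variances, only the groups compared, the 3′ minus 5′ signal as a covariate, omission of the pair of arrays highest in it, and each array left out. Testing probe sets one by one (23203), the block with the covariate, and the random block for contrasts of regions were added after the data were seen.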

Additional observations from a re-analysis of the deposited data

Results flagged for a closer look

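In 3 of the 39 genes, differences ran in opposite directions in different groups without overlap of arrays, and the interaction did not pass for any of the 3. Between regions this held for 1 of 39 genes (2.56%), against 1.47% of all genes tested, and between stages for 2 (5.13%), against 1.77%. Enah, a filament elongation factor, read 12.40, 12.38 and 12.39 on closed E9.5 arrays and 12.48, 12.44 and 12.52 on open E9.5 arrays, but 12.38 and 12.48 on closed E8.5 arrays and 12.28, 12.35 and 12.33 on open E8.5 arrays (interaction -0.19, adjusted p = 0.556). The Enah groups nearly met at both stages, with differences of -0.09 at E9.5 (adjusted p = 0.511) and 0.11 at E8.5 (adjusted p = 0.633). Of 6 Enah probe sets 5 were below 0 at E9.5 and 2 at E8.5, and the next brightest gave 0.15 and 0.02. Actn1 stood lower at E9.5 than at E8.5 in closed tissue (-0.10) and higher in open tissue (0.28), with an interaction of -0.38 (adjusted p = 0.313). Its closed groups nearly met, at 10.81, 10.58 and 10.82 at E9.5 and 10.84 and 10.83 at E8.5 (adjusted p = 0.951). Myl6, a myosin essential light chain, stood higher at E9.5 than at E8.5 in closed tissue (0.22) and lower in open tissue (-0.05), with an interaction of 0.27 (adjusted p = 0.671). Its groups nearly met in both regions. Closed arrays read 6.33, 6.63 and 6.57 at E9.5 and 6.24 and 6.33 at E8.5 (adjusted p = 0.655). Open arrays read 6.45, 6.43 and 6.45 at E9.5 and 6.52, 6.49 and 6.46 at E8.5 (adjusted p = 0.862).

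Among other genes of the pathway, the difference between the regions changed with stage by -1.0 for Llgl2 (adjusted p = 0.0163; means 6.83 closed and 5.83 open at E9.5, 8.22 closed and 6.21 open at E8.5) and by -1.51 for Frmd4a (adjusted p = 0.0296; means 9.06 closed and 10.20 open at E9.5, 9.21 closed and 8.83 open at E8.5). The Llgl2 call was lost without open E8.5 replicate 3 (0.0623), closed E8.5 replicate 2 (0.0752) or closed E9.5 replicate 3 (0.051), with adjusted p from 0.00271 to 0.0853 over all alternatives. The Frmd4a call was lost without 9 of the 11 arrays, all but closed E9.5 replicate 2 and open E9.5 replicate 3 (0.0647 to 0.0928), and Frmd4a stood at -1.02 without the open E9.5 arrays of high 3′ signal (adjusted p = 0.172, against 0.00134 to 0.172 over all alternatives). No group held enough arrays for a test of single outlying arrays.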

How the results depend on the processing

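Lmo7 passed at both stages under all 25 alternatives, from -2.28 to -1.22 at E9.5 and from -2.20 to -1.10 at E8.5. Of the 16 named differences of the 39 genes, only Myl9 at E8.5 changed direction, to 0.09 without closed E8.5 replicate 1 (against -1 without closed E8.5 replicate 2). At E9.5 the count of 4 was 9 with the replicate block, 9 with the random block (Arhgap35 in place of Mpp5), 8 with the 3′ to 5′ covariate, 6 with block and covariate, 2 with no filter, 1 with averaged probe sets and 2 with only the groups compared; leaving out arrays gave 2 to 5, with 5 without open E9.5 replicate 3 or closed E8.5 replicate 1 or 2, and 2 (Lmo7 and Actn1) without open E8.5 replicate 1, 2 or 3, open E9.5 replicate 1 or 2, or closed E9.5 replicate 1, 2 or 3. At E8.5 the count of 1 was 6 with the block, 5 with the random block (Lmo7, Ezr, Marcks, Prkci and Shroom3), 6 with block and covariate (Actn1 and Shroom3 in place of Myl9 and Rhob), 4 with the covariate, 2 with quantile normalization and 2 without both arrays of highest 3′ signal; leaving out arrays gave 1 to 2, with 2 (adding Ezr) without open E9.5 replicate 3. Between stages in open tissue the count of 1 was 2 with centred arrays, 2 with the covariate, 0 with only the groups compared and 0 without both arrays of highest 3′ signal; leaving out arrays gave 0 to 3, with 3 without open E9.5 replicate 3 and 0 without open E8.5 replicate 1, 2 or 3 or open E9.5 replicate 1 or 2. In closed tissue the count of 0 was 1 with averaged probe sets and 2 with the covariate, and 0 without each array. The interaction count was 0 under every alternative. The random block left both counts between stages as they were. Where only a part of the samples or genes entered, that is how those alternatives are built; otherwise the cause was not tested.

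Over all genes tested, counts that moved by over 1.5 times were, at E9.5, 1139 against 2221 (block), 2333 (random block), 1764 (covariate) and 603 (without both arrays of highest 3′ signal); at E8.5, 957 against 1516 (random block) and 1519 (covariate); in open tissue between stages, 670 against 182 (without both arrays); in closed tissue, 323 against 730 (covariate) and 150 (only the groups compared); and for the interaction, 167 against 452 (block), 492 (random block), 297 (covariate) and 72 (without both arrays). Single arrays moved these counts as well. In open tissue between stages the count was 1262 without open E9.5 replicate 3, 367 when open E8.5 replicate 1 was omitted and 422 when its replicate 3 was, 436 when open E9.5 replicate 1 was omitted and 414 when its replicate 2 was. In closed tissue omitting replicate 2 of the E9.5 group left 174, and omitting replicate 2 of the E8.5 group left 210. For the interaction it was 84 to 106 without any one of open E8.5 replicates 1, 2 and 3, closed E8.5 replicate 2, open E9.5 replicates 1 and 2, and closed E9.5 replicates 2 and 3. Without both arrays open E9.5 has 1 array, assumed to vary like the other groups. The number of arrays limits precision: the median SE over the 39 genes was 0.13 at E9.5 and 0.15 at E8.5.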

Other observations

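Several of the 39 genes had small differences in the brightest probe set. Ctnnb1 had log2 differences between -0.05 and 0.05, with SE of 0.06 in the comparisons of regions, and lay between 13.34 and 13.50 on all 11 arrays. Myh10, the heavy chain of non-muscle myosin IIB, lay between 11.88 and 12.10, with differences of -0.01 between regions at E9.5 and 0.02 at E8.5. Cfl1, the actin-severing cofilin, lay between 13.15 and 13.47. Tjp1 differed by -0.01 (SE 0.16) between regions at E9.5 and -0.01 (SE 0.18) at E8.5, though its arrays ranged over 11.19 to 11.70. Dimmer probe sets gave larger values, none of them past the threshold. A Cfl1 probe set stood at 0.32 (SE 0.63) between regions at E9.5 and -0.48 (SE 0.63) between stages in open tissue. For Ctnnb1 the values were 0.32 and 0.28 between regions at E9.5.

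Probe sets of a gene did not always give like differences. For Marcks between regions at E9.5 the 7 probe sets ran from 0.13 to 0.80, and for Enah between stages in open tissue the 6 ran from -0.27 to 0.64. For Ctnna1 at E9.5 a second bright probe set gave -0.35 (adjusted p = 0.199) beside -0.31.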
